A study of Mus musculus with 6 samples.

Results

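Heme synthesis and bilirubin formation were examined in mouse liver through 9 genes chosen by name, out of 48699 in the deposited table: Alas1, Alad, Uros, Urod, Cpox, Ppox and Fech, which build heme, and Blvra and Blvrb, which reduce biliverdin. All 9 had 1 row each and all passed the filter of a mean of at least 0.5 FPKM, as did 11810 genes in all. FPKM is the number of fragments per kilobase of transcript and per 1e6 mapped fragments, so levels can be set roughly side by side between genes. Some entries, named below, have a deposited locus that runs past the annotated gene, and their levels are less sure. The livers came from male C57BL/6 mice 10 to 12 weeks of age that had been fasted overnight for 8 to 10 hours. The 3 controls carried floxed alleles of Fxr (Nr1h4) and Shp (Nr0b2) on both chromosomes (Fxrfl/fl Shpfl/fl), and the 3 double knockouts lacked both receptors in hepatocytes (hepatocyte-specific fxr-/- shp-/-). The column names of the table add that the diet was chow. The Cre driver and the state of both genes in the other cells of the liver are not given in the labels.

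Heme is the iron porphyrin of cytochromes P450, catalase and the respiratory chain, and the liver is its main site of synthesis outside the red cell lineage. The pathway starts in mitochondria with ALAS1, the rate-limiting enzyme in liver, passes through the cytosol from ALAD to UROD, and returns to mitochondria for CPOX, PPOX and FECH, which inserts the iron. Heme represses ALAS1, while fasting, acting through PGC-1α, and drugs that activate the receptors CAR and PXR induce it. Bile acids acting through FXR have been described to induce the human ALAS1 gene. Heme oxygenase opens the ring to biliverdin, which biliverdin reductase A (BLVRA) turns into bilirubin. Biliverdin reductase B (BLVRB) reduces the beta isomer of biliverdin and also flavins, and is abundant in liver and red cells.

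The depth read from the steps in the low FPKM values, in units of 1e6 fragments, was between 13.2 and 14.1 in the 6 libraries, so it differed little between the groups. Nr0b2 and Nr1h4 were lower in every double knockout library, with mean levels 87.5-fold and 3.40-fold lower. Control replicate 3 stood apart through its immediate-early genes, whose 9 listed members summed to 686 FPKM against 34.5 to 149 FPKM in the other 5 libraries. Double knockout replicate 2 held the highest summed levels of the macrophage and Kupffer cell list (229 FPKM against 49.7 to 135 FPKM) and of the erythroid list (1186 FPKM against 194 to 848 FPKM). The endothelial sum was also highest there, at 51.9 FPKM against 25.5 to 45.0 FPKM. So was the stellate and fibroblast sum, at 121 FPKM against 46.4 to 95.8 FPKM. The lymphocyte and neutrophil sum was not, and the hepatocyte sum was lowest there. The cholangiocyte markers, mostly Spp1, summed to 33.7 to 44.2 FPKM across controls and 59.1 to 63.7 FPKM in the double knockouts. The 6 hepatocyte markers summed to between 54013 and 65187 FPKM across controls and between 28375 and 48909 FPKM in the double knockouts, mostly albumin. Of the 6, 5 had a negative log2 difference and only albumin had groups apart. Mean Cps1 was 601 FPKM in controls and 603 FPKM in double knockouts, and mean Tat was 869 and 1041 FPKM. The means of the others were lower in the double knockouts. Beside albumin, mean Ttr was 5580 and 3980 FPKM, mean Apoa1 10685 and 8235 FPKM, and mean Hnf4a 158 and 130.4 FPKM. In a bulk sample, fewer cells of a type and less RNA per cell cannot be told apart.

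The promoter stretches of the gene with the clearest difference between the groups and of the rate-limiting enzyme are shown here because both are referred to below. They come from RefSeq promoter windows on GRCm38.p6, which matched 8 of the 9 genes with 12 windows, each of 300 bases around a start site. The first line is the stretch of 250 bases before the first RefSeq start of Blvrb, on the plus strand at chr7:27447728-27447977, with its 4 GC boxes in capitals. The other is a stretch on the minus strand at chr9:106247906-106247935, with the 10 bases of the palindromic site of nuclear respiratory factor 1 (NRF1) in capitals. That site lies 195 to 186 bases before one RefSeq start of Alas1 and 29 to 38 bases after the other.
Blvrb: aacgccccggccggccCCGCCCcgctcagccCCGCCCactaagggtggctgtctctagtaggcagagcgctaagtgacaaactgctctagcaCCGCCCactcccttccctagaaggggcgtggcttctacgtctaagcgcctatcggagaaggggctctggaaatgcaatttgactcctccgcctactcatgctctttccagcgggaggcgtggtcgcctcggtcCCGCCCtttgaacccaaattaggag
Alas1: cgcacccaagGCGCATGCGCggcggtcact

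Windows were searched on both strands for the NRF1 site as capitalized above, the nuclear receptor half-site AGGTCA, its inverted repeat with 1 base between the copies (IR1, the form FXR binds with its partner RXR), its direct repeat with 1 base between them (DR1), the antioxidant response element TGACNNNGC and the GC box GGGCGG. Both repeats contain the half-site. Alas1 was the only one of the 8 genes with the NRF1 site, in 2 overlapping windows, and 0.971% of all 32851 windows held it. GC boxes were present in 7 of the 12 windows, from 6 genes, against 35.7% of all windows, and the antioxidant response element in 1 of the 12, that of Blvra, against 12.4%. The half-site, held by 16.3% of all windows, was absent from these 12 windows, and so were both repeats (0.00913% of all windows for IR1 and 0.0396% for DR1). A match or its absence describes the letters in these windows and says nothing of binding.

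Of the 9 genes, Blvrb and Ppox were lower in every double knockout library than in every control library, and the other 7 overlapped. Blvrb had the largest difference, 43.1% below the control mean. None of the 9 passed limma's adjusted threshold of 0.05 over all tested genes, which 37 genes (0.313%) passed, 0.169% higher and 0.144% lower in the double knockout. At an unadjusted limma p under 0.05 there were 2, Blvrb and Ppox, where 14.9% of all tested genes fell. Groups that did not overlap and were lower in the double knockout occurred in 11.6% of all tested genes, and in either direction in 22.9%, so 2 of 9 genes is near the background. The authors' deposited table called 1 of the 9, Blvrb, where it called 4.58% of its tested genes, 1.73% as lower in the double knockout.

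**Figure D1:**
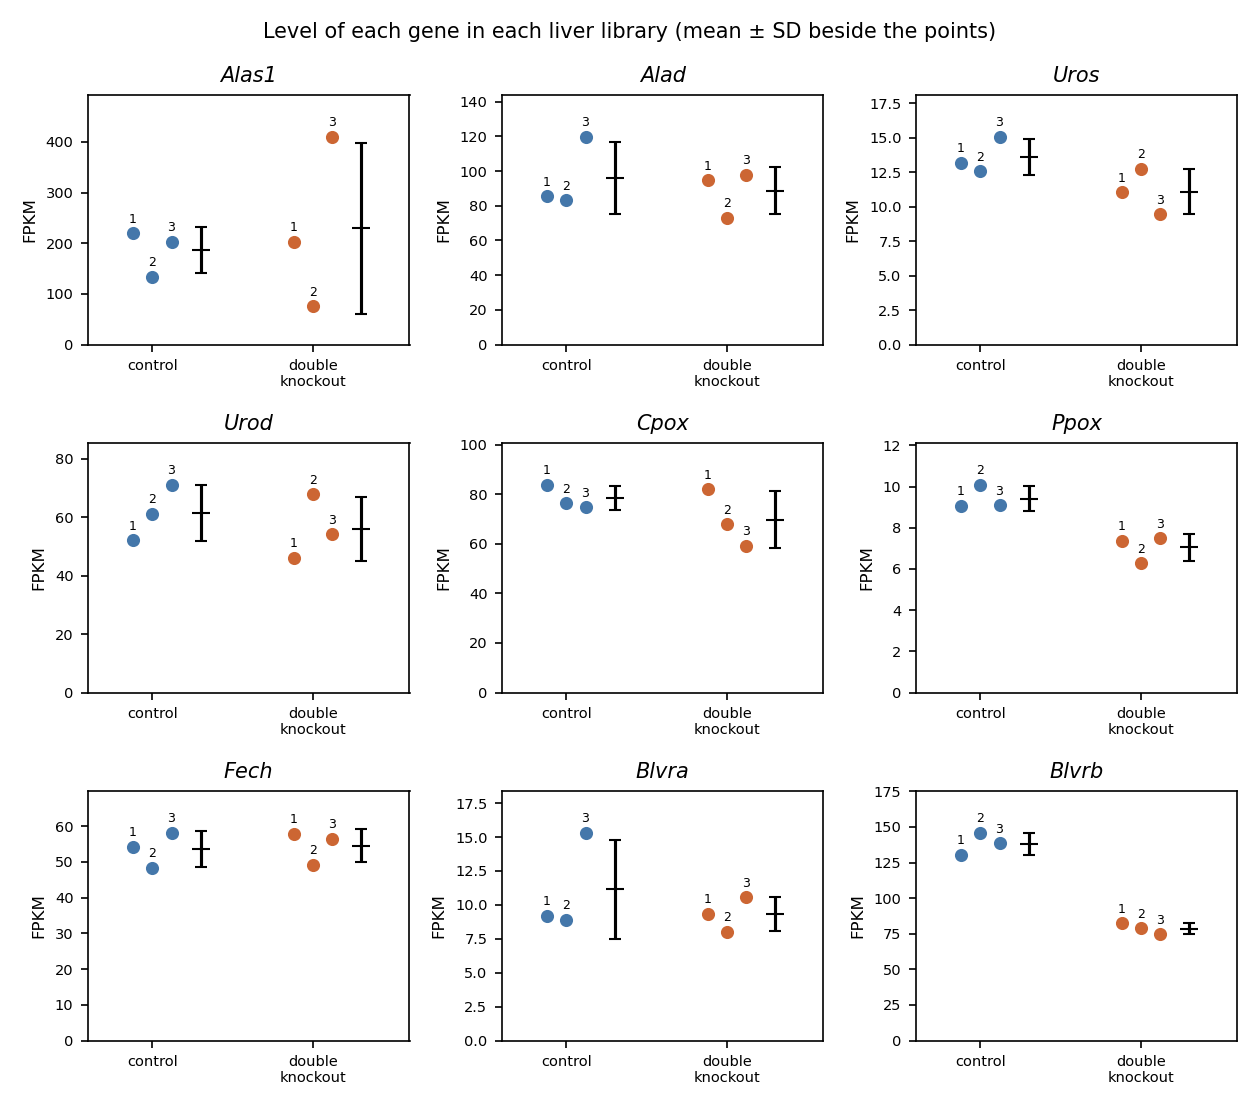
FPKM of each of the 9 genes (vertical axes, from 0) in the 3 control and 3 double knockout libraries, with the replicate number at each point and the mean ± SD beside it. Blvrb and Ppox are the genes whose groups do not overlap, and Alas1 in the double knockouts spreads from 75.5 to 411 FPKM.

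Alas1, which condenses glycine and succinyl-CoA (ENSMUSG00000032786.14, chromosome 9, 106233455 to 106248654, GRCm38), was the most abundant of the 9 in 4 libraries. It measured 220, 134 and 203 FPKM in control replicates 1, 2 and 3 and 203, 75.5 and 411 FPKM in double knockout replicates 1, 2 and 3. The lowest and the highest library were both double knockouts, 5.44-fold apart, and the control values lay between them. The means were 186 ± 45.5 and 230 ± 169 FPKM (SD, n = 3 each), with a log2 difference of 0.026 (SE 0.56, limma adjusted p = 0.991). The interval of that difference, from -1.27 to 1.33 on the log2 scale (95%), includes changes of over 2-fold either way, so these libraries show neither a change nor its absence. The sign turned in 3 of the 6 fits that left out 1 library, which spanned -0.55 without double knockout replicate 3 to 0.67 without double knockout replicate 2.

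The spread of Alas1 within the groups was among the widest of any transcript. Its pooled within-group SD was 0.90 on the log2 scale, at the 98.2nd percentile of the tested genes. Most of it came from the double knockouts (SD 1.22, against 0.38 in the controls), a difference in spread that was not tested. At least 1687 fragments lay behind each value by the estimated depth, so counting error was about 2.43% at most. An antisense gene, 4930500F10Rik, shares 7.53% of the annotated exonic bases of Alas1, and the use of strand in counting was not given in the sources used here.

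Other measured levels also had an extreme in the library where Alas1 was lowest. Double knockout replicate 2, where Alas1 was lowest, had the highest Hmox1, the heme oxygenase that is induced by heme and abundant in macrophages (chosen after its values were seen), at 26.5 FPKM. In double knockout replicate 3, where Alas1 was highest, Hmox1 was at 9.67 FPKM, the lowest of its group. The other libraries do not follow that order: Hmox1 was at 7.55, 7.37 and 17.2 FPKM across controls and 15.6 FPKM in double knockout replicate 1. All 7 macrophage and Kupffer cell markers were highest in double knockout replicate 2, and so were the 4 globin genes, with Hbb-bs at 674 FPKM against 56.2 to 449 FPKM elsewhere. These markers had no such extreme where Alas1 was highest. In double knockout replicate 3 the macrophage and Kupffer cell list summed to 88.4 FPKM and the erythroid list to 213 FPKM. Neither sum was the lowest of all libraries. The part of these cells in the Alas1 and Hmox1 values was not tested.

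**Figure D2:**
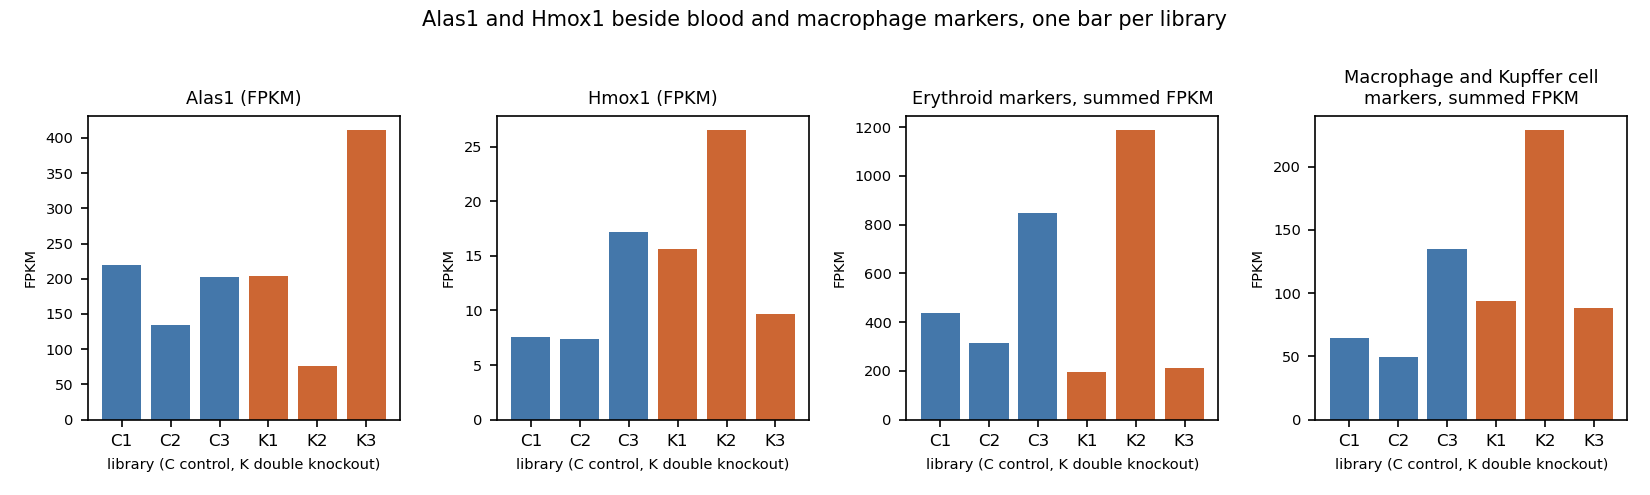
Alas1, Hmox1 and the summed levels of the erythroid and the macrophage and Kupffer cell lists, in FPKM from 0, with 1 bar for each library (C1 to C3 control, K1 to K3 double knockout). K2 is lowest for Alas1 and highest for the other measures, and K3 is highest for Alas1.

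The 3 tested genes whose log2 levels followed Alas1 most closely over the 6 libraries, leaving out predicted genes, were Dhdh, a dihydrodiol dehydrogenase (Pearson r = 0.99), Taf5l, a subunit of a histone acetyltransferase complex (0.97), and Idua, a lysosomal iduronidase (0.97). Spearman's rho was 0.94 for each of the 3. These values describe likeness of pattern in libraries that all genes share, and 13 genes exceeded 0.95. Their ranges were narrower than that of Alas1: Dhdh lay between 37.9 and 47.4 FPKM.

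The cytosolic steps showed no difference beyond the spread. Alad, which joins a pair of aminolevulinate molecules into porphobilinogen (ENSMUSG00000028393.10, chromosome 4, 62509169 to 62519918), stood at 85.4, 83.1 and 119.9 FPKM across controls and 94.9, 73.2 and 97.8 FPKM in the double knockouts. The highest value was that of control replicate 3, and without that library the sign of the difference turned from -0.11 to 0.061 (limma adjusted p = 0.831 and 0.847). Urod, which removes 4 carboxyl groups to give coproporphyrinogen (ENSMUSG00000028684.14, chromosome 4, 116989965 to 116994413), stood at 52.1, 61.1 and 71.1 FPKM across controls and 46.1, 67.8 and 54.1 FPKM in the double knockouts. Its groups overlapped, with a log2 difference of -0.14 (SE 0.19, limma adjusted p = 0.767).

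Uros, which closes the ring as uroporphyrinogen III (ENSMUSG00000030979.13, chromosome 7, 133686243 to 133710072), was present at a lower level. It measured 13.2, 12.6 and 15.1 FPKM across controls and 11.1, 12.8 and 9.47 FPKM in the double knockouts. Double knockout replicate 2 lay between control replicates 1 and 2, while the other double knockouts were below all controls. Its log2 difference of -0.28 (SE 0.16, limma adjusted p = 0.447) kept its sign in all 16 alternatives. Between 136 and 213 fragments stood behind a value, a counting error of up to 8.57%. The deposited table gives Uros a locus that runs to 133881532, past the end of the annotated gene. It gives Ppox one that starts at 171270328, before the annotated gene, so other fragments may be included in either value. The deposited locus also differs for Alas1 (to 106249413), Cpox (58670208 to 58680391) and Fech (64456550 to 64489066). Positions printed beside the gene identifiers are those of the annotation.

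Of the mitochondrial steps, Cpox and Fech overlapped between the groups and Ppox did not. Cpox, the oxidase that makes protoporphyrinogen (ENSMUSG00000022742.5, chromosome 16, 58670292 to 58717636), stood at 83.9, 76.4 and 74.8 FPKM across controls and 82.0, 67.9 and 59.2 FPKM in the double knockouts. Replicate 1 of the double knockouts was at the level of the controls and the other 2 were below them, for a log2 difference of -0.18 (SE 0.16, limma adjusted p = 0.635). Fech, the ferrochelatase (ENSMUSG00000024588.8, chromosome 18, 64452914 to 64490251), had the smallest ratio of highest to lowest library among the 9, while Blvrb and Ppox had smaller SDs within the groups. It measured 54.3, 48.3 and 58.2 FPKM across controls and 57.9, 49.2 and 56.5 FPKM in the double knockouts. Its 95% interval, from -0.31 to 0.36 on the log2 scale, runs from -19.6% to 28.7%. Quantile normalization placed all double knockout values of Fech above the controls (log2 difference 0.19, limma adjusted p = 0.512).

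Ppox, which oxidizes protoporphyrinogen to protoporphyrin (ENSMUSG00000062729.11, chromosome 1, 171275990 to 171281186), was at 9.07, 10.1 and 9.10 FPKM across controls and 7.37, 6.29 and 7.50 FPKM in the double knockouts. Every double knockout value was below every control, and the group mean was 25.1% lower. The log2 difference was -0.37 (SE 0.14, limma adjusted p = 0.293), and it stayed between -0.41 and -0.30 in all 16 alternatives, with no overlap in any of them. By its unadjusted limma p of 0.0305 it was within the 14.9% of tested genes under 0.05. Its fragments numbered between 142 and 231 per library, with a counting error of up to 8.39%. B4galt3, on the opposite strand, shares 17.5% of the exonic bases of Ppox. The log2 difference of B4galt3 was 0.061.

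**Figure D3:**
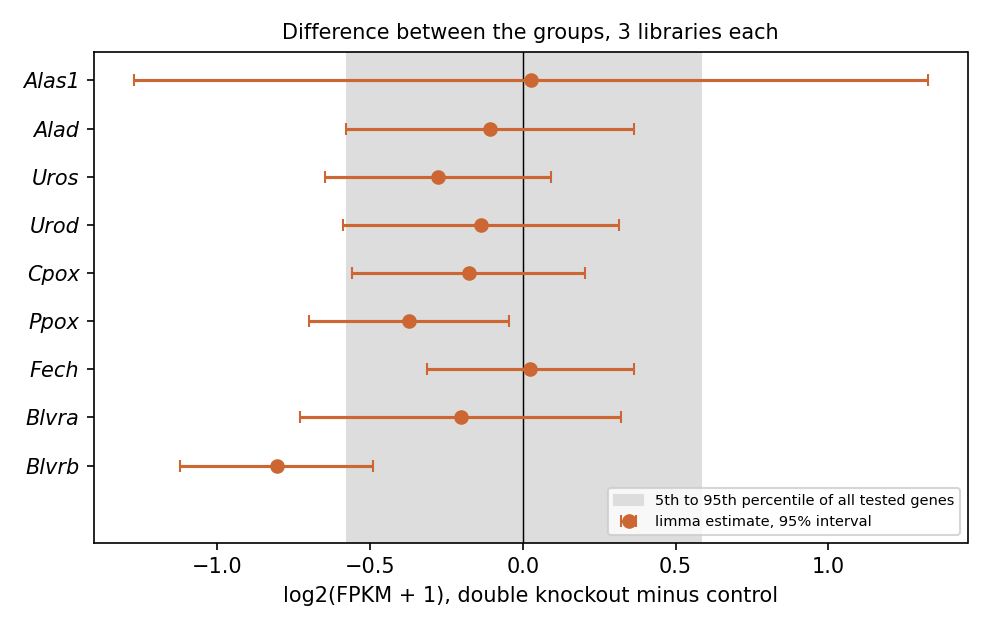
Log2(FPKM + 1) difference, double knockout minus control, for each of the 9 genes with its 95% interval from limma (n = 3 libraries each), over a grey band from the 5th to the 95th percentile of all tested genes (-0.58 to 0.58). Blvrb lies outside the band, and the interval of Alas1 is the widest.

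Both biliverdin reductases were expressed, at unlike levels. Blvra (ENSMUSG00000001999.15, chromosome 2, 127070665 to 127097084) measured 9.19, 8.91 and 15.3 FPKM across controls and 9.34, 8.04 and 10.6 FPKM in the double knockouts. Apart from control replicate 3, all libraries lay between 8.04 and 10.6 FPKM. The log2 difference was -0.20 (SE 0.22, limma adjusted p = 0.697) and 0.030 without control replicate 3.

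Blvrb (ENSMUSG00000040466.16, chromosome 7, 27447978 to 27466144) measured 130.5, 146.0 and 138 FPKM across controls and 82.2, 79.0 and 74.8 FPKM in the double knockouts. The gap between the groups was wide against the scatter inside them: the lowest control was 130.5 FPKM and the highest double knockout 82.2 FPKM. The means, 138 ± 7.78 and 78.6 ± 3.71 FPKM (SD, n = 3 each), were 1.76-fold apart, with a log2 difference of -0.81 (SE 0.14, 95% interval -1.12 to -0.49). By its unadjusted limma p of 0.000439 it ranked 61st of 11810 genes, and its limma adjusted p was 0.0807. The authors' deposited table gave q = 0.0112 for it, with group values of 138 and 78.6 FPKM.

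The direction of the Blvrb difference held in all 16 alternatives, with no overlap between the groups in any. Without control replicate 3 it passed the threshold (log2 difference -0.80, limma adjusted p = 0.0391), and also with libraries weighted by their quality (-0.81, limma adjusted p = 0.0152). Without any 1 of the other 5 libraries the limma adjusted p lay between 0.199 and 0.315, and the difference between -0.85 and -0.77. Quantile normalization gave -0.58 and removal of the trend with transcript length and GC content -0.63, the smallest differences seen. BLVRB is also a red cell protein, and the summed erythroid list was at 436, 315 and 848 FPKM in control replicates 1, 2 and 3 and 194, 1186 and 213 FPKM in double knockout replicates 1, 2 and 3. Double knockouts 1 and 3 were thus below every control in this sum, as they were for Blvrb, and double knockout 2 was above every control, with Blvrb at 79.0 FPKM. The part of red cells in the Blvrb difference was not tested.

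**Figure D4:**
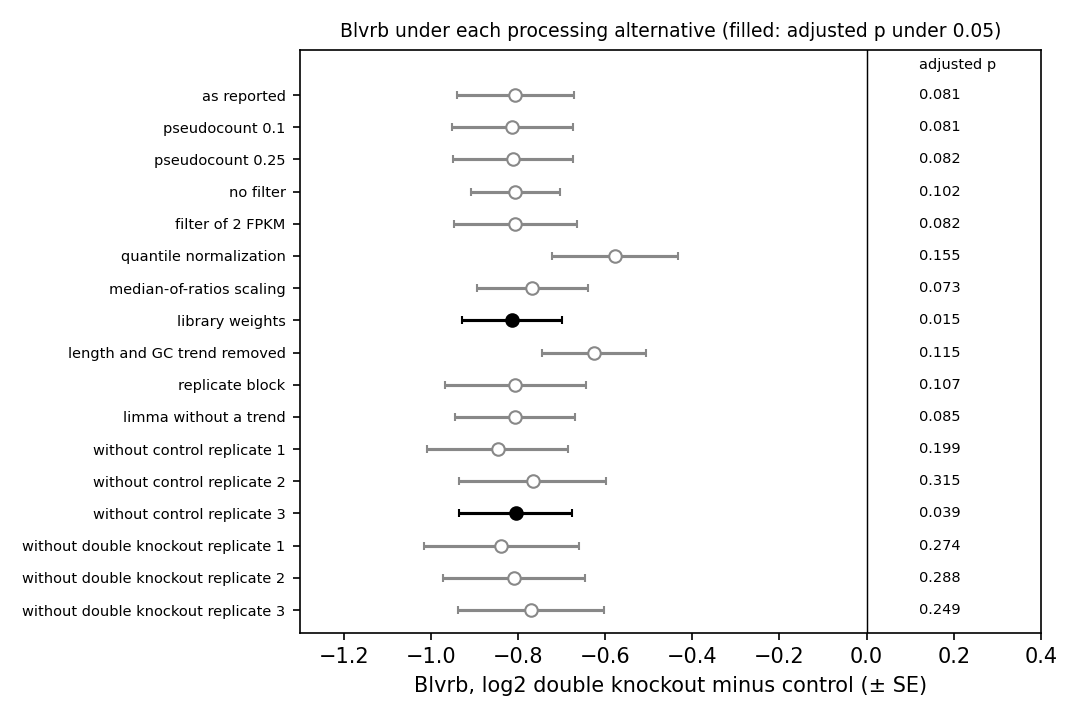
Log2 difference of Blvrb, double knockout minus control, with its SE, as reported and under 16 processing alternatives, with limma's adjusted p at the right and filled points where it is under 0.05. All values lie between -0.85 and -0.58, and 2 of the 16 alternatives are past the threshold.

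Because Blvra overlapped and Blvrb did not, the ratio of their levels was also taken within each library. Blvrb stood at 14.2, 16.4 and 9.03 times Blvra in the controls and 8.80, 9.83 and 7.08 times in the double knockouts. Those groups overlap, through control replicate 3 with its high Blvra. The genes closest to Blvrb in pattern were Hacd1, a dehydratase of very long chain fatty acid synthesis, S100a13, a calcium-binding protein, and Map1lc3a, an LC3 protein of autophagosomes (Pearson r = 0.99 for each over the 6 libraries). Any gene with groups as far apart scores high on this measure, and 104 genes exceeded 0.95.

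The order of the 9 levels was much the same in all libraries. Alas1, Blvrb and Alad took the 3 highest places in each library, Cpox was always the fourth, and Urod and Fech shared the places after it. Alas1 exceeded Blvrb in 4 of 6 libraries, all but replicate 2 of each group, and Blvrb exceeded Alad in 4 of 6, all but double knockout replicates 1 and 3. Those neighbours were therefore not separated. Urod exceeded Fech in 3 of 6 libraries. A step of at least 3.85-fold then separated Fech from Uros in every library, and Uros, Blvra and Ppox changed places among themselves. Ppox and Uros had the lowest FPKM of the 7 synthetic enzymes.

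As a group, 7 of the 9 genes had a negative difference, with a median of -0.18, where 50.8% of all tested genes were negative with a median of -0.0060. Control replicate 3 was the highest library for 5 of the 9, and double knockout replicate 2 the lowest for 4. Without control replicate 3 the median of the 9 was -0.028, and under quantile normalization 0.0096, with Alad, Urod and Cpox turning positive.

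A wider list of 54 genes of heme supply, use and breakdown, all of which were tested, had 33 negative and 21 positive differences and a median of -0.082. Limma called 1 of them, Cyp4a14, a fatty acid ω-hydroxylase that carries heme, lower (against 0.144% of all tested genes). It measured 473, 583 and 523 FPKM across controls and 84.1, 138 and 120 FPKM in the double knockouts (log2 difference -2.22, limma adjusted p = 0.0170). The call was lost with no filter on low values and without any 1 of the libraries other than control replicate 3. Every double knockout value was below every control in 11 of the 54 (20.4%, against 11.6% of all tested genes), and above in 2 (3.70%, against 11.3%).

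Of the synthetic enzymes on that list, Alas2, the red cell form of the first enzyme, was listed at 66.2, 57.4 and 68.2 FPKM for controls and at 76.0, 69.5 and 68.8 FPKM for double knockouts, so every double knockout value was just above every control (log2 difference 0.16, limma adjusted p = 0.617). The Alas2 range was narrow beside that of the globins (56.2 to 674 FPKM for Hbb-bs), and of the other red cell genes on the list Klf1 was at 1.69 to 3.57 FPKM, Slc4a1 and Epb42 were at most 0.193 FPKM and Gata1 was listed at 0. Apex2, on the opposite strand, shares 12.9% of the exonic bases of Alas2, and its log2 difference was -0.42. The deposited table gives the Alas2 entry a locus from 150519519 to 150643878 on chromosome X, wider than the annotated gene (150547375 to 150570638), so its value may include fragments that are not from Alas2.

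None of the 6 genes of heme breakdown, conjugation and bilirubin transport had groups apart, a count too small to set against the 22.9% of all tested genes that did. Ugt1a1, which conjugates bilirubin, measured 303 ± 19.9 and 266 ± 45.8 FPKM, and Abcc2, which exports the conjugate into bile, 80.2 ± 30.3 and 84.7 ± 12.5 FPKM (SD, n = 3 each). Slco1b2, a hepatocyte uptake transporter, was at 456 ± 192 and 484 ± 59.0 FPKM. The scavengers Hpx (4046 ± 2772 and 3557 ± 1141 FPKM), Hp (3531 ± 1913 and 2905 ± 507 FPKM) and Ambp (2232 ± 626 and 1779 ± 275 FPKM) overlapped too (SD, n = 3 each), and all 3 were highest in control replicate 3.

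Of 16 genes of mitochondrial supply, transport and turnover, 4 had every double knockout value below every control (against 11.6% of all tested genes) and none had it above (against 11.3%). The most abundant, Pgrmc1, a heme-binding membrane protein reported to bind ferrochelatase, measured 814, 851 and 1034 FPKM across controls and 583, 486 and 558 FPKM in the double knockouts (log2 difference -0.73, limma adjusted p = 0.174). Among the others were Abcb6, a porphyrin transporter (28.3 ± 3.18 and 20.6 ± 0.876 FPKM), and Slc25a38, the mitochondrial glycine carrier (12.2 ± 0.316 and 9.89 ± 0.971 FPKM; SD, n = 3 each), both chosen after their values were seen. Slc25a39 (279 ± 45.2 and 275 ± 44.9 FPKM) and Tmem14c, which moves protoporphyrinogen into the matrix (163 ± 37.0 and 122 ± 20.1 FPKM), overlapped (SD, n = 3 each).

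Among 9 regulators of Alas1 and of heme genes, none passed limma's threshold. Hnf4a (158 ± 35.4 and 130.4 ± 11.4 FPKM) and Nr1d1, which encodes REV-ERBα (26.8 ± 3.21 and 31.5 ± 3.66 FPKM), overlapped between the groups (SD, n = 3 each). Nr1i3, which encodes CAR, overlapped too, ranging from 82.8 to 105.0 FPKM across controls and from 67.2 to 106 FPKM across double knockouts. Nfe2l2, which encodes the oxidative stress regulator NRF2, was above the controls in every double knockout (23.6 ± 1.73 and 29.2 ± 2.45 FPKM), and Nr1i2, which encodes PXR, was below (24.2 to 28.4 FPKM and 13.3 to 22.0 FPKM; limma adjusted p = 0.365 and 0.298). Both were chosen after their values were seen. Nrf1, the gene of the factor whose site is printed above for Alas1 (chosen after its values were seen), was at 4.57, 4.31 and 4.09 FPKM across controls and 3.89, 3.47 and 3.72 FPKM in the double knockouts (log2 difference -0.18, limma adjusted p = 0.557).

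Of 16 proteins that carry heme, 5 had all double knockout values below the controls (against 11.6% of all tested genes) and 5 had a positive difference. Apart from Cyp4a14 these were Cyp27a1, Tdo2, Cycs and Cyc1, chosen after their values were seen. Tdo2, the tryptophan dioxygenase of hepatocytes, measured 1311, 1281 and 1084 FPKM across controls and 739, 599 and 672 FPKM in the double knockouts, and Cycs, cytochrome c, 36.6, 46.7 and 41.7 FPKM and 27.6, 21.3 and 18.7 FPKM (limma adjusted p = 0.132 for each). The most abundant members, Cyp2e1 (6126 ± 629 and 5586 ± 954 FPKM), Cyp3a11 (2437 ± 201 and 2746 ± 731 FPKM) and Cyb5a (1948 ± 399 and 1678 ± 321 FPKM), overlapped (SD, n = 3 each).

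**Figure D5:**
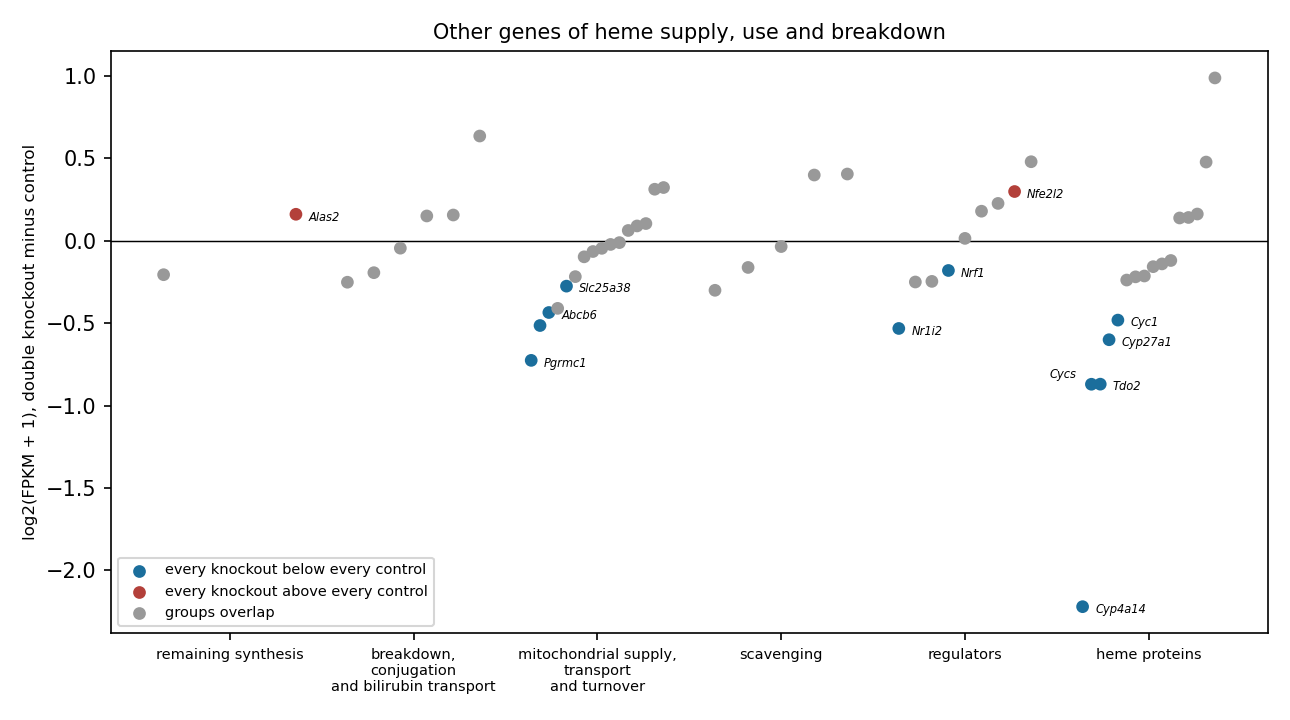
Log2(FPKM + 1) difference, double knockout minus control, for each of the 54 genes of the wider list by subgroup, coloured by whether the groups overlap (n = 3 libraries each). The groups are apart for 13 genes, 11 lower and 2 higher, those described in the text being named, and Cyp4a14 alone passed limma's adjusted threshold.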

How the data were processed

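Polyadenylated liver RNA (1 µg of total RNA, stranded mRNA kit, per the labels' protocols) was measured in 6 libraries, each taken as 1 mouse; the labels give replicate numbers and say no more, so p-values measure only the spread between these samples, which may be technical. The authors deposited FPKM per library. Their second deposited table holds each gene's p-value, q-value and FPKM by group. Tools named in the submitters' processing notes, without roles, were Cuffdiff 2.2.1, Picard 1.119, STAR 2.4.2a, Trimmomatic and bcl2fastq 2.17.1.14, with the build GRCm38 (mm10). The annotation and the treatment of strand and of multi-mapping reads were not given in the sources used here. Groups and replicate numbers came from the titles. All 6 per-library columns were used.

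Log2(FPKM + 1) values of all 11810 genes averaging 0.5 FPKM or more were fitted with limma 3.58.1 (R 4.3.3) and its intensity trend, with Benjamini-Hochberg adjustment at 0.05. This scale understates changes of low genes. GENCODE M21 gave positions, transcript lengths and GC content. Fragments behind a value were estimated from the mean transcript length of the gene and the worth of 1 fragment, and are approximate. The fit was tested on simulated data.

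The members and lists were chosen with earlier results of these data known. Genes named are the 9 members, both deleted genes, listed genes past the threshold, up to 3 of the highest mean level per subgroup, and the 3 closest patterns to Alas1 and to the member with the largest difference; others are marked. A few listed genes that the rule names are counted but not reported here by name. Alternatives were pseudocounts, filters, scalings, library weights, length and GC, the replicate block, no trend and leaving out each library. Same-numbered libraries correlated at 0.22, -0.08 and 0.30 in their deviations from the group means, and differently numbered ones at -0.32 to 0.25. These values do not decide whether the numbers pair the libraries. The labels state no pairing, and the main fit took none.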

Additional observations from a re-analysis of the deposited data

How the results depend on the processing

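Over 16 alternatives, 144 values of the 9 genes were recomputed: 127 kept their sign and their side of the threshold, 2 (both Blvrb) newly passed it, and 15, from 6 genes (Alas1, Alad, Urod, Cpox, Fech and Blvra) and none past the threshold, turned sign. Quantile normalization turned Alad (0.095), Urod (0.029) and Cpox (0.0096), library weights turned Alad (0.056), and removal of the length and GC trend turned Urod (0.13) and Fech (-0.082). With 1 library left out, the log2 difference ranged from -0.55 to 0.67 for Alas1, -0.20 to 0.061 for Alad, -0.047 to 0.10 for Fech and -0.33 to 0.030 for Blvra. The cause of these turns was not tested. The number of the 9 past the threshold was 1 with library weights and ranged from 0 to 1 with 1 library left out, and the number above every control was 1 under quantile normalization (Fech). The wider list had 0 past the threshold with no filter, 4 with library weights, and 0 to 2 with 1 library left out; it had 2 (Cyp7a1 and Cyp4a14) without control replicate 3 and 0 without any 1 of the other 5. Over all genes, 37 passed; there were 2 with no filter (19705 genes tested), 563 with library weights, and 2 to 242 with 1 library left out, the 242 being without control replicate 3 and the others at most 6.

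With the replicate number as a block, Blvrb had a limma adjusted p of 0.107, none of the 9 passed and 50 genes passed in all. Counting errors were largest for Uros, Ppox and Blvra, at up to 8.57%, 8.39% and 9.72%. The spread between 3 libraries limits Alas1 and also Blvra, with within-group SDs of 0.90 and 0.31 on the log2 scale.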

Other observations

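The tested gene that follows Blvrb on chromosome 7, apart from a pseudogene, is Sertad3, 7624 bases beyond its end and chosen after its values were seen. Sertad3 had every double knockout value below every control (log2 difference -0.65, limma adjusted p = 0.200), as 11.6% of all tested genes did. A link between its values and those of Blvrb was not tested. The nearest tested gene on the other side, Shkbp1, 91959 bases away, overlapped between the groups (-0.16, limma adjusted p = 0.738). Uros overlaps Bccip on the opposite strand, outside annotated exons. Bccip had groups apart with a log2 difference of -0.46 (limma adjusted p = 0.238), where 22.9% of all tested genes had groups apart.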
